A study of Mus musculus with 3 samples.

Results

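The factors that start, extend and end translation were examined in ribosome footprints of primary mouse cortical neurons. Members were the protein-coding genes whose symbols begin with Eif or Eef and a digit, together with Etf1, Gspt1, Gspt2 and Abce1. This gave 72 genes of the 20823 with counts for all 3 regions of the mRNA (5′ UTR, CDS and 3′ UTR), each represented by its longest transcript. Of these, 67 had at least 100 CDS reads in the 3 libraries together. The 5 below that number were Eef1akmt3, Eef1akmt4, Eef2kmt, Eif4e1b and Eif4ebp3, and they entered no count of CDS ratios.

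The footprints are stretches of mRNA shielded by ribosomes from nuclease digestion and then sequenced. There were 3 libraries, each from 3 pooled dishes of cultured cortical neurons. No drug was given to WT neurons, cycloheximide was given for 2 min to Chx neurons, and harringtonine for 2 min and then a cycloheximide pulse to Harr neurons. Cycloheximide halts elongating ribosomes, whereas harringtonine holds ribosomes that have just joined at a start codon and lets those already elongating run on. The buffers used to rinse and lyse the cells contained cycloheximide at 100 µg per ml in all 3 libraries, WT included. With 1 library per treatment no difference has a replicate check, no p-value is given, and every interval covers counting error only. Aligned reads numbered 30219197 in WT, 35722483 in Chx and 9754412 in Harr, and the members' CDSs received 270946, 304362 and 60631 of them. The CDS reads of 8 neuronal markers summed to between 4238 and 5142 per 1000000 reads in the 3 libraries, with none at 0. Those of 4 astrocyte markers summed to 78.8 in Harr, 195 in Chx and 213 in WT. Those of 4 microglial markers summed to between 1.44 and 2.80, and those of 4 oligodendrocyte markers to between 2.15 and 6.52. In every set of markers, neuronal ones included, the lowest sum was that of Harr. No astrocyte marker was at 0, whereas 2 oligodendrocyte markers were at 0 in each library and microglial ones in Chx (1) and Harr (2). The part of these other cells in the results was not tested. Fewer cells of a type, fewer mRNAs per cell and fewer ribosomes per mRNA cannot be told apart.

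Initiation factors bring the small ribosomal subunit with the initiator tRNA to the mRNA cap, let it scan the 5′ UTR and release it at a start codon, where the large subunit joins. eIF1 and eIF1A keep scanning accurate, eIF2 carries the initiator tRNA, and eIF2B reloads eIF2 with GTP. The eIF4 factors bind the cap and unwind the mRNA, and eIF3 is the large scaffold between them and the ribosome. eEF1A delivers each aminoacyl-tRNA, eEF2 moves the ribosome by a codon, eRF1 (Etf1) with eRF3 (Gspt1 and Gspt2) reads the stop codon, and ABCE1 splits the ribosome afterwards. Several of these mRNAs are textbook cases of control by their own start regions. A start codon is read best with a purine at position −3 and a G at +4, counted from the first base of the start codon as 1.

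Start codons of 6 members are shown because these members are described below. Each is written 5′ to 3′ on the mRNA strand with the start codon in capitals, 9 bases before it and 3 after.
Eif1: tcgtatcgtATGtcc
Eif1b: tagtgtcgcATGtcc
Eif5: taagccaaaATGtct
Eif5b: tgacaagcgATGggg
Eif4g2: gccgccaaaGTGgag
Eef1b2: gccttcgccATGgga
In the mm10 build these lie at chr11:100320121-100320135 (Eif1, plus strand), chr9:120492802-120492816 (Eif1b, plus), chr12:111539607-111539621 (Eif5, plus), chr1:37998281-37998295 (Eif5b, plus), chr7:111081542-111081556 (Eif4g2, minus) and chr1:63177203-63177217 (Eef1b2, plus), each within 1 exon that holds the end of the 5′ UTR and the start of the CDS. Eif1 and Eif1b both carry C at −3 and T at +4, so they have neither favoured base. Eif4g2, which encodes a relative of eIF4G that lacks the cap-binding part, was the member annotated with a start codon other than ATG. A sequence was at hand for 71 members, of which 62 (87.3%) had a purine at −3, 41 (57.7%) had G at +4 and 5 (7.04%) had neither. Over all 20700 genes with sequence these shares were 84.1%, 49.3% and 7.64%. The other members with neither base were Eif2ak4, Eif3b and Eif4e1b.

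CDS levels ran from 0 to 880 RPKM (reads per 1000 nt and 1000000 aligned reads) in WT and were led by the elongation factors. The highest levels there were those of Eef1a1 (880 RPKM), Eif5a (730), Eef2 (575), Eef1a2 (473) and Eif4h (334). The same 5 genes led in Chx, whereas in Harr the order was Eef2 (469 RPKM), Eef1a1 (435), Eif4g2 (262), Eef1a2 (202) and Eif1b (193). The 6 elongation factors alone held 41.7% of all member CDS reads in WT, 41.2% in Chx and 35.8% in Harr. At the other end Eif4e1b, a cap-binding protein known from oocytes, had no read in any region of any library. A count of 0 allows up to 3 reads, or 0.0993 per 1000000 reads in WT, 0.0840 in Chx and 0.308 in Harr. The eIF2 kinases, which phosphorylate eIF2 under stress, had low levels, with medians of 2.95 (Chx), 3.70 (Harr) and 2.20 RPKM (WT). Together the members held 1.63% of CDS reads in WT and 1.61% in Harr, with Wilson 95% intervals of 1.62 to 1.63 and 1.59 to 1.62, and 1.51% in Chx.

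**Figure D1:**
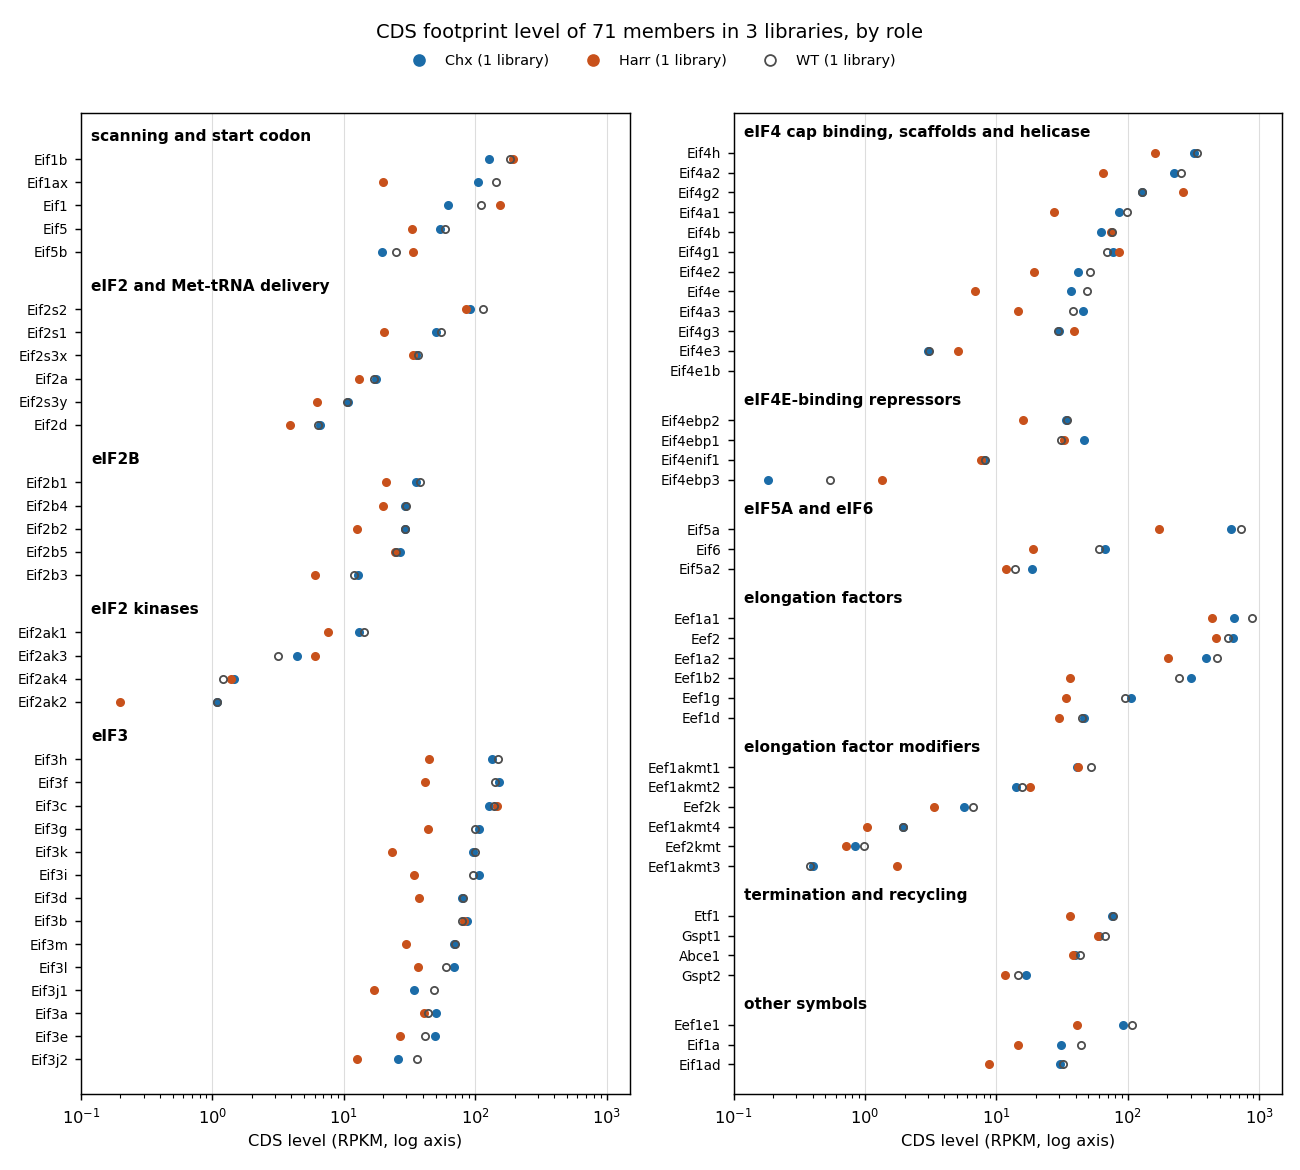
CDS level of each member in RPKM on a log axis, grouped by role; filled blue points are Chx, filled orange points Harr and open circles WT, each from 1 library, and Eif4e1b has no point because it had no reads. Chx and WT lie close together for most members, whereas Harr lies lower for short CDSs and higher for Eif1, Eif1b, Eif5b and Eif4g2.

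In Harr a larger share of the members' footprints lay in the 5′ UTR. The 5′ UTR held 4.59% of member reads in WT (Wilson 95% interval 4.52 to 4.67), 6.18% in Chx (6.09 to 6.26) and 27.8% in Harr (27.5 to 28.1). The corresponding shares over all genes were 6.14%, 8.71% and 33.5%. Reads were assigned at their 5′ end, so the footprint of a ribosome on the start codon is counted in the 5′ UTR. The log2 odds ratio of 5′ UTR to CDS reads, Harr against Chx, was at least 1 (a 2-fold higher ratio) in 58 of 61 members with 10 or more reads in each region, and its median was 2.88. Among all genes 92.1% passed that threshold, with a median of 2.46. Against WT, 60 of 60 members passed it, beside 96.0% of all genes, with medians of 3.59 and 3.23. The members' shares lay close to the background. All 61 odds ratios, Harr against Chx, were above 0, as were 98.6% of those of all genes.

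**Figure D2:**
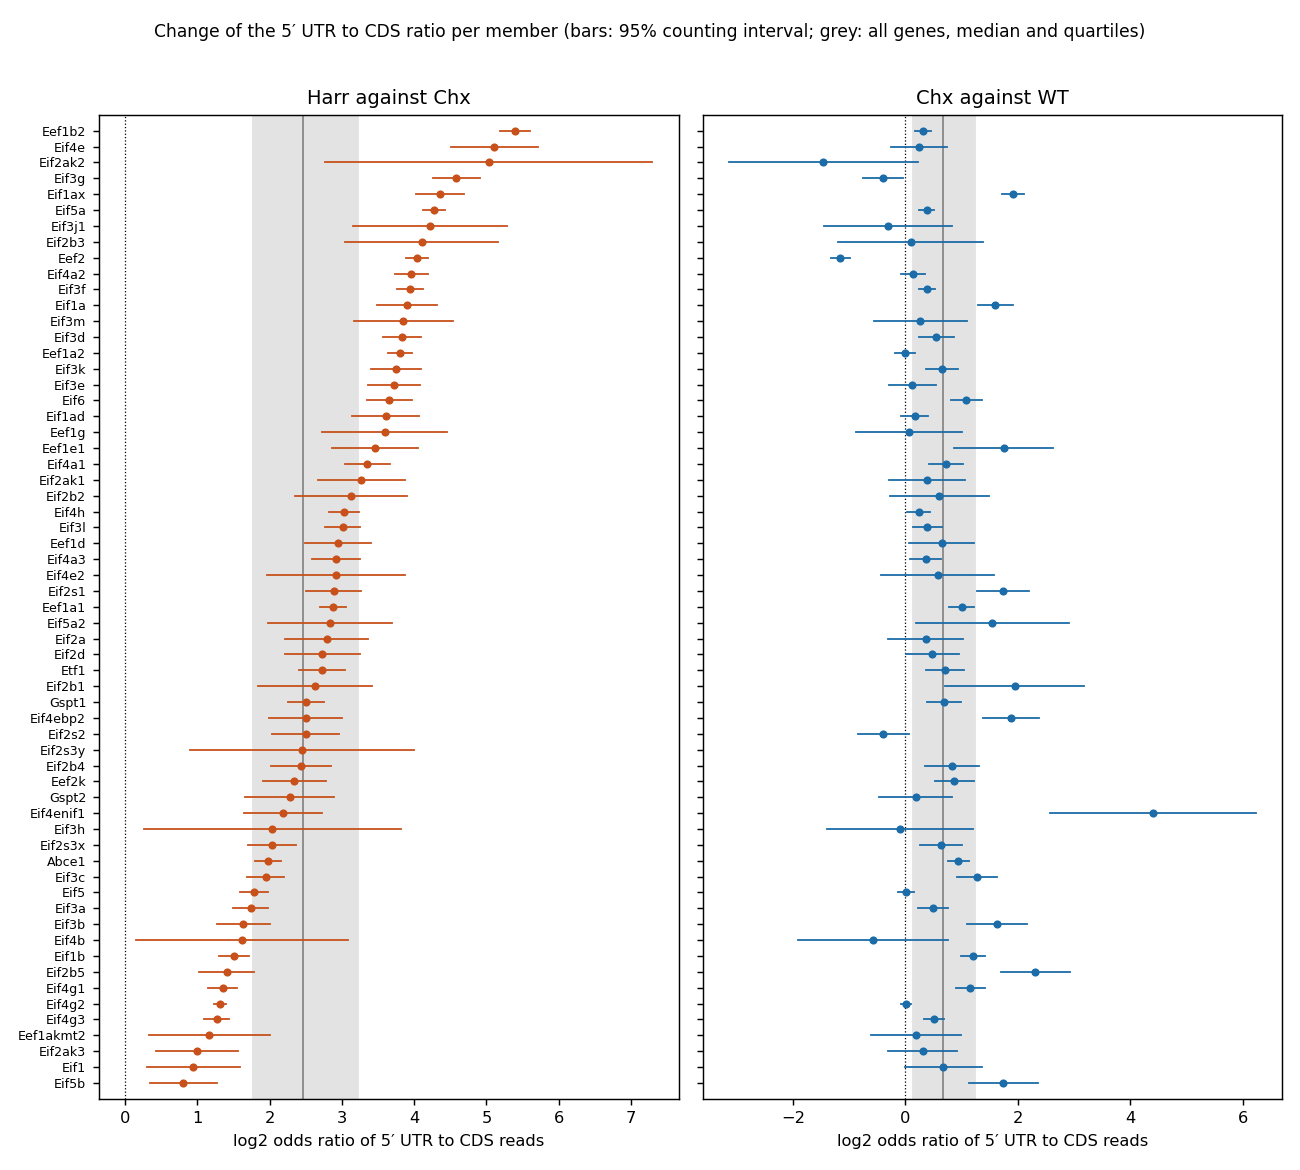
Log2 odds ratio of 5′ UTR to CDS reads for members with at least 10 reads in each region, Harr against Chx on the left and Chx against WT on the right; bars are 95% counting intervals, the grey line and band are the median and quartiles of all genes, and members are ordered by the left panel. Eef1b2 and Eif4e stand at the top on the left and Eif5b and Eif1 at the bottom, whereas Eif4enif1 stands apart on the right.

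The CDS reads found in Harr went with the length of the CDS, in members as in all genes. The log2 ratio of CDS reads, scaled to all CDS reads of the library, Harr against Chx, had a median of −0.53 in 11 members with a CDS under 600 nt, −0.66 in 20 of 600 to 1200 nt, −0.22 in 23 of 1200 to 2000 nt, 0.48 in 9 of 2000 to 4000 nt and 0.59 in 4 of 4000 nt or more. All genes gave −0.68, −0.54, −0.07, 0.36 and 0.66 in the same classes. Short coding regions thus had lower ratios than long ones. Of 67 members, 14 lay 0.5 or more above 0 and 26 lay 0.5 or more below 0, beside 21.1% and 29.5% of all 11459 genes. Against WT the counts were 13 and 30, beside 24.4% and 28.7%. Relative to the median of its own length class a member was higher in 32 of 67 cases (Harr against Chx). When WT was the reference, it was higher in 24 cases for Harr and in 21 for Chx. Scaled to all aligned reads instead of CDS reads, the counts were 5 upward and 43 downward for Harr against Chx, beside 3.87% and 54.8% of all genes, whose median then was −0.60.

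**Figure D3:**
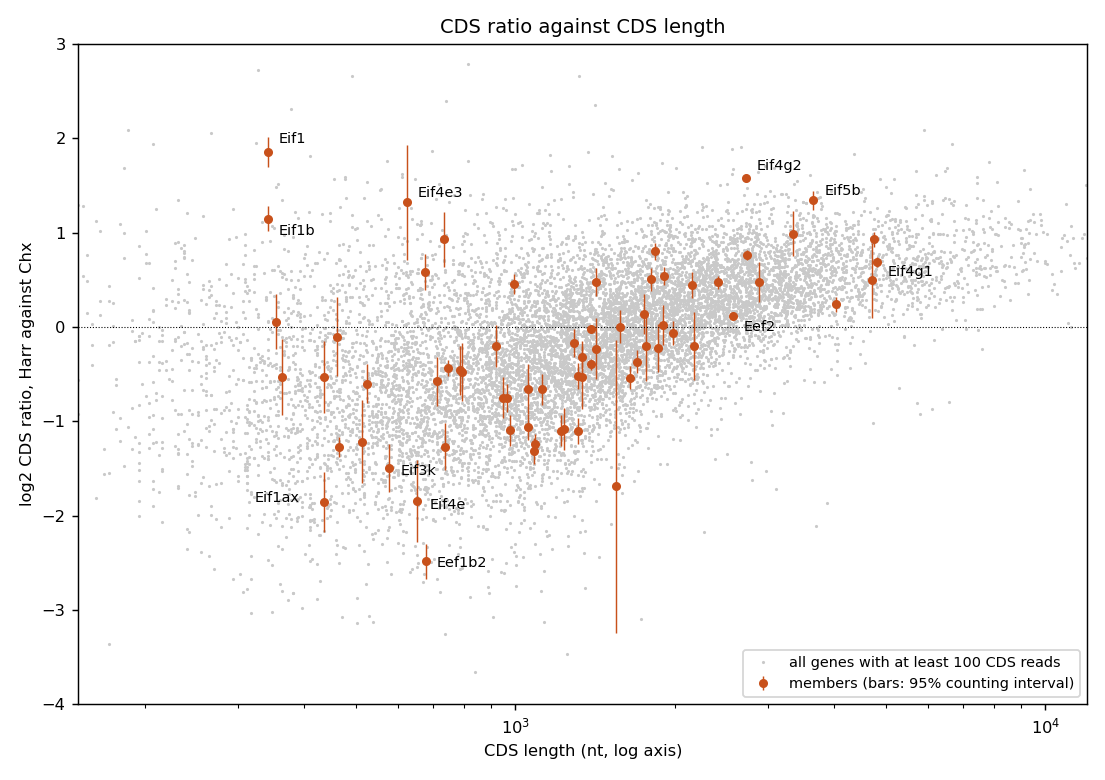
Log2 CDS ratio, Harr against Chx, against CDS length on a log axis; grey points are all genes with at least 100 CDS reads and orange points are members with 95% counting intervals. Members follow the cloud of all genes, with Eif1, Eif1b and Eif4e3 above most genes of their length and Eef1b2 below.

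The factors of scanning and start codon choice lay far apart on these scales. Eif1, whose product guards against wrong start codons, had 36 (Chx), 47 (Harr) and 34 (WT) reads in the 5′ UTR and 764, 516 and 1151 in the CDS. Its CDS is 342 nt long, yet its CDS ratio, Harr against Chx, was 1.86 (1.69 to 2.02), above 99.5% of genes under 600 nt. The Harr count was high for the shallowest library, and the Chx count was low. Of the 25-nt words of the Eif1 CDS, 98.7% also occur in transcripts of other genes, so these counts may hold reads of near-identical copies. Its paralog Eif1b shares 4.40% of its CDS words, and its pattern was alike. Eif1b had 603, 708 and 318 reads in the 5′ UTR and 1558, 643 and 1894 in the CDS. Its CDS ratio was 1.14 (1.01 to 1.28), above 97.4% of genes of that length, and its 5′ UTR odds ratio, Harr against Chx, was 1.51 (1.30 to 1.71), below the all-gene median of 2.46. For Eif1 that odds ratio was 0.95 (0.30 to 1.59). Both mRNAs carry the start codons without favoured bases shown above, and a link of these bases to the ratios was not tested.

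Along Eif1b the reads were uneven. The 31 nt of coding sequence in the start exon had 14, 9 and 7 reads in the order Chx, Harr, WT. The next 164 nt had 948, 443 and 1102, and the 102 nt after them had 469, 142 and 608. The middle of the short CDS thus kept footprints in Harr. The 31 nt had few reads in Chx and WT as well, so they tell little of ribosomes just after the start codon. Whether reads beside the exon boundary were lost was not tested.

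Eif1ax, the gene for eIF1A, was the opposite case. It had 1147, 1211 and 352 reads in the 5′ UTR and 1638, 84 and 1900 in the CDS, in Chx, Harr and WT. Reads in the 5′ UTR were 0.19 times those in the CDS in WT, 0.70 times in Chx, and 14.4 times in Harr. The CDS ratio, Harr against Chx, was −1.86 (−2.17 to −1.54) and the 5′ UTR odds ratio was 4.36 (4.02 to 4.69). The related Eif1a (5′ UTR reads 444, 856 and 174) gave 3.89 (3.48 to 4.31), but 256 nt of its 5′ UTR overlap a CDS on the same strand. Eif1ad, a relative with 3 upstream ATGs, had about as many reads in the 5′ UTR as in the CDS without harringtonine, 618 and 554 in Chx and 495 and 497 in WT. In Harr it had 603 and 44.

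Eif5, the GTPase-activating protein of eIF2, had the most upstream ATGs among these 5 factors. Its 5′ UTR of 626 nt spans 3 exons and holds 5 ATGs, and the sequences around those in the 2 exons nearest the CDS are shown with the ATG in capitals, named by the base of the transcript at which the ATG begins.
Eif5 ATG at 397: gttgggtttATGtct
Eif5 ATG at 505: aattttttcATGtca
Eif5 ATG at 537: cagtcgtttATGtca
They lie at chr12:111538518-111538532, chr12:111539485-111539499 and chr12:111539517-111539531, all on the plus strand. The frames from 397 and from 505 share a stop codon that lies 64 nt inside the CDS, whereas the frame from 537 closes after 69 nt within the 5′ UTR. Eif5 had 1380, 790 and 1261 reads in the 5′ UTR and 2498, 414 and 2306 in the CDS, so that its 5′ UTR held many reads without drug as well. The exon next to the CDS, with the ATGs at 505 and 537 and the annotated start, had 1083, 451 and 1091 reads over 208 nt of 5′ UTR. The middle exon, with the ATG at 397, had 292, 337 and 166 over 194 nt, and the exon at the 5′ end had 5, 2 and 4. The log2 odds ratio to CDS reads, Harr against Chx, was 2.80 (2.53 to 3.07) for the middle exon and 1.33 (1.11 to 1.55) for the exon next to the CDS. These intervals do not overlap. Because 33.3% of the CDS words also occur in other genes, the CDS counts that both values share are uncertain, while 0% of the 5′ UTR words do.

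Eif5b, the GTPase that joins the subunits, had the lowest 5′ UTR odds ratio of the members, Harr against Chx, at 0.81 (0.35 to 1.27). It had 87, 72 and 28 reads in the 5′ UTR and 2535, 1200 and 2762 in the CDS. The start exon ends 35 nt into the CDS, and those 35 nt had 0, 1 and 2 reads. Its start codon has both favoured bases, and its 5′ UTR holds 3 upstream ATGs. Its CDS ratio was 1.34 (1.24 to 1.44), above 98.7% of genes of 2000 to 4000 nt.

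The genes of eIF2, the carrier of the initiator tRNA, lay near the all-gene median in the 5′ UTR. The alpha subunit gene Eif2s1 had 181, 148 and 50 reads in the 5′ UTR and 1692, 187 and 1561 in the CDS, with a 5′ UTR odds ratio, Harr against Chx, of 2.88 (2.50 to 3.27). Over the 6 genes of eIF2 and Met-tRNA delivery this ratio ranged from 2.03 to 2.88. No CDS ratio of theirs passed 0.5 upward, and that of Eif2s1 passed it downward, at −0.75 (−0.97 to −0.54), with 67.6% of its CDS words found in other genes. Among all genes 21.1% passed upward and 29.5% downward. The X-linked gamma subunit gene Eif2s3x had CDS levels of 35.2, 33.4 and 36.4 RPKM and its Y-linked partner Eif2s3y 10.8, 6.29 and 10.6. Of the CDS words of Eif2s3x 95.1% occur in other genes, against 1.22% for Eif2s3y. The 5 subunits of eIF2B had levels of at most 38.1 RPKM in WT. Among them Eif2b5, the catalytic epsilon subunit, had 159, 107 and 25 reads in a 5′ UTR of 97 nt and 2048, 520 and 1626 in the CDS. Its odds ratio was 1.41 (1.03 to 1.79) for Harr against Chx and 2.31 (1.70 to 2.92) for Chx against WT.

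The eIF2 kinases were sparse. Eif2ak3, the kinase PERK of the endoplasmic reticulum, had 72, 53 and 35 reads in the 5′ UTR and 530, 196 and 322 in the CDS. Its 5′ UTR odds ratio, Harr against Chx, was 0.99 (0.43 to 1.56), and its CDS ratio of 0.99 (0.75 to 1.22) was above 92.9% of genes of 2000 to 4000 nt. Eif2ak2, the kinase PKR that senses double-stranded RNA, had 4, 8 and 10 reads in the 5′ UTR and 60, 3 and 51 in the CDS. With 3 Harr reads its odds ratio of 5.03 has an interval of 2.76 to 7.29.

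The 14 eIF3 genes lay between 36.3 and 149.9 RPKM in WT, and of their CDS ratios, Harr against Chx, 7 of 14 were 0.5 or more below 0 and 1 was 0.5 or more above, beside 29.5% and 21.1% of all genes. The lowest ratios were those of Eif3k and Eif3f. Eif3k had 1979, 131 and 1730 CDS reads and a ratio, Harr against Chx, of −1.49 (−1.75 to −1.24). Eif3f had 5872, 440 and 4676 and a ratio of −1.32 (−1.46 to −1.18), with 1198, 1385 and 732 reads on an annotated 5′ UTR of 15 nt. The long scaffold subunit Eif3c, at 12384, 3928 and 11543 CDS reads, had a ratio of 0.76 (0.71 to 0.82). The 5′ UTR odds ratio, Harr against Chx, was at least 1 in 12 of 12 eIF3 genes with enough reads, beside 92.1% of all genes, and was largest for Eif3g, at 4.58 (4.26 to 4.91) from 130, 346 and 134 reads in the 5′ UTR. Eif3h, Eif3i and Eif3j2 had few 5′ UTR reads for their CDS reads. With 5111 and 3752 CDS reads in Chx, Eif3h and Eif3i had 9 and 0 reads in the 5′ UTR there, and 3 and 2 in Harr. Their annotated 5′ UTRs are 66 and 52 nt long. Of the transcript words of Eif3h 41.4% occur in other genes, so its counts may hold reads of copies. Eif3j2 had 1, 0 and 0 reads in the 5′ UTR and 728, 97 and 869 in the CDS. All CDS words of Eif3j1 and Eif3j2 (100%) occur in other genes, each other included, so their counts are uncertain.

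Among the eIF4 genes Eif4g2 had the highest CDS ratio, Harr against Chx. It had 2659, 3700 and 2223 reads in the 5′ UTR and 12426, 6947 and 10474 in the CDS, in Chx, Harr and WT. Its CDS ratio, Harr against Chx, was 1.58 (1.54 to 1.62), above 99.6% of genes of 2000 to 4000 nt. The Harr reads were concentrated early in the CDS. The segments from base 42 to base 248 of the CDS held 3858 Harr reads, which is 55.5% of its Harr CDS reads (Wilson 95% interval 54.4 to 56.7), against 28.2% in Chx (27.5 to 29.1) and 16.3% in WT (15.6 to 17.0). Of these, the 66-nt segment had 432, 995 and 218 reads and the 141-nt segment after it had 3078, 2863 and 1486. The 41 coding bases of the start exon, next to the annotated GTG, had 149, 48 and 77. The 5′ UTR odds ratio was 1.32 (1.23 to 1.40) for Harr against Chx and 0.01 (−0.08 to 0.10) for Chx against WT, and 2182, 2942 and 2002 of the 5′ UTR reads lay in the first of its 2 exons, away from the start exon. Few of its CDS words (0.48%) occur in other genes.

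The scaffold and helicase genes lay on opposite sides of 0. Eif4g1, the main cap-complex scaffold, had 475, 364 and 160 reads in the 5′ UTR and 13273, 3993 and 9983 in the CDS, and its CDS ratio, Harr against Chx, of 0.69 (0.64 to 0.74) lay next to the class median of 0.66. Its relative Eif4g3 had 751, 641 and 436 reads in the 5′ UTR and 5103, 1812 and 4223 in the CDS, but 549 nt of its 5′ UTR overlap a CDS. Eif4e, the cap-binding protein, had 71, 127 and 68 reads in the 5′ UTR and 859, 44 and 970 in the CDS. Its CDS ratio was −1.85 (−2.29 to −1.42) and its 5′ UTR odds ratio 5.11 (4.50 to 5.71), although 83.0% of its CDS words occur in other genes. The helicase genes Eif4a1 and Eif4a2 had 3760, 327 and 3629 and 8767, 690 and 8325 CDS reads, with ratios of −1.10 (−1.26 to −0.94) and −1.25 (−1.36 to −1.13). In RPKM Eif4a1 was at 0.39 times the level of Eif4a2 in WT, 0.38 in Chx and 0.42 in Harr, with 99.5% and 44.0% of CDS words shared with other genes. On the transcript of Eif4a2 with the most reads the CDS counts were 9435, 1038 and 8983, the ratio was −0.76, and the Harr level was 86.9 RPKM in place of 65.0. Eif4b, the helicase cofactor, had a CDS ratio of 0.80 (0.71 to 0.89) and only 7, 7 and 11 reads in the 5′ UTR. Among the eIF4E-binding repressors Eif4ebp2 had 200, 146 and 47 reads in the 5′ UTR and 437, 56 and 379 in the CDS, whereas Eif4ebp1 had 1, 3 and 0 in the 5′ UTR and 584, 113 and 331 in the CDS.

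Eif5a, which helps ribosomes through difficult peptide bonds, had 1199, 1799 and 937 reads in the 5′ UTR and 10089, 780 and 10264 in the CDS of 465 nt. Its CDS ratio, Harr against Chx, was −1.27 (−1.38 to −1.17), and its 5′ UTR odds ratio was 4.28 (4.13 to 4.43). Its paralog Eif5a2 was far lower, at 18.7, 11.8 and 13.9 RPKM against 607, 172 and 730. Of the CDS words of Eif5a 52.6% occur in other genes, against 0% for Eif5a2, so the Eif5a counts are uncertain. Eif6, which keeps ribosomal subunits apart, had 436, 426 and 156 reads in the 5′ UTR and 1762, 136 and 1342 in the CDS.

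The elongation factors included the member with the largest change, Harr against Chx. Eef1b2, a nucleotide exchange subunit of eEF1, had the largest change of all members in both measures for Harr against Chx. It had 1220, 1713 and 679 reads in the 5′ UTR and 7275, 242 and 5029 in the CDS, giving a CDS ratio, Harr against Chx, of −2.49 (−2.67 to −2.30) and a 5′ UTR odds ratio of 5.40 (5.18 to 5.61). Of all genes of 600 to 1200 nt, 0.83% had a lower CDS ratio, although 27.4% of its CDS words occur in other genes, and each of its 6 coding segments had at most 73 reads in Harr. The partner subunit Eef1d, at 1983 nt, had 3274, 583 and 2689 CDS reads and a ratio of −0.07 (−0.19 to 0.06).

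The eEF1A paralogs were both high. Eef1a1 had 450, 611 and 258 reads in the 5′ UTR and 32054, 5898 and 36958 in the CDS, and Eef1a2, the form of neurons and muscle, had 499, 988 and 514 and 19407, 2749 and 19886. In RPKM Eef1a1 was at 1.86 times the level of Eef1a2 in WT, 1.66 in Chx and 2.15 in Harr. Because 90.8% of Eef1a1 CDS words occur in other genes, against 0.44% for Eef1a2, this ratio is uncertain. Their CDS ratios, Harr against Chx, were −0.02 (−0.06 to 0.02) and −0.40 (−0.46 to −0.34). Eef2, the translocase, had 464, 1539 and 794 reads in the 5′ UTR and 58322, 11779 and 44742 in the CDS. It was the member with the clearest excess of 5′ UTR reads in WT over Chx, with an odds ratio, Chx against WT, of −1.16 (−1.32 to −0.99). Its kinase Eef2k had 283, 232 and 152 reads in the 5′ UTR and 441, 71 and 434 in the CDS, so that its 5′ UTR held 0.64, 3.27 and 0.35 times the reads of its CDS, with no upstream ATG in the annotated leader.

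The release factors had 5′ UTR odds ratios near the all-gene median. Etf1 had 214, 184 and 113 reads in the 5′ UTR and 3560, 463 and 3084 in the CDS. Gspt1 had 248, 383 and 145 and 4079, 1106 and 3841, and its intronless paralog Gspt2 had 49, 45 and 32 and 1130, 214 and 844. Their 5′ UTR odds ratios, Harr against Chx, were 2.72 (2.41 to 3.04), 2.51 (2.26 to 2.76) and 2.28 (1.66 to 2.89), with intervals that overlap. Abce1 had more reads upstream: 855, 893 and 413 in the 5′ UTR against 2530, 671 and 2348 in the CDS. Its 2 upstream ATGs both open frames that close inside the 5′ UTR. The level of Gspt1 was 3.59, 5.14 and 4.53 times that of Gspt2 in Chx, Harr and WT.

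The position of the remaining footprints was compared within the 13 members with a CDS of 2000 nt or more. Reads in segments centred within 600 nt of the start codon were compared with those in segments centred 1200 nt or more away, and the log2 ratio of near to far reads, Harr against Chx, was below 0 in 11 of 13, with a median of −1.22. Of the 3187 genes of that length with enough reads 91.2% were below 0, with a median of −1.45. Eif5b had the deepest loss, with 799 near and 1631 far reads in Chx against 76 and 1088 in Harr, a log2 ratio of −2.80 (−3.16 to −2.45). Eif3c (−2.33, interval −2.49 to −2.17) and Eef2 (−2.11, interval −2.18 to −2.03) came next. The exceptions were Eif4g2, at 1.01 (0.90 to 1.12), and Eif2ak3, at 0.27 (−0.23 to 0.78), whose interval spans 0. Among the 11 below 0, Eef2k (−0.69, interval −1.63 to 0.26) and Eif2ak4 (−0.80, interval −1.84 to 0.25) also had intervals that span 0. Summed over all 13 long members and scaled to all CDS reads, the ratio was 0.59 (0.55 to 0.63) in segments centred in the first 300 nt, −0.99 (−1.06 to −0.92) from 300 to 600 nt and 1.17 (1.13 to 1.20) from 2000 nt on. Without Eif4g2, left out after its values were seen, these were −0.43 (−0.48 to −0.37), −1.70 (−1.79 to −1.61) and 1.18 (1.14 to 1.21). Eef2 supplied many of the reads, and without it, also left out after its values were seen, they were 1.21 (1.16 to 1.26), −0.02 (−0.10 to 0.06) and 1.18 (1.14 to 1.22), so the pooled values of the first 600 nt depend on these 2 genes. For Eif4g2 the first 300 nt were at 2.35 (2.29 to 2.41).

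**Figure D4:**
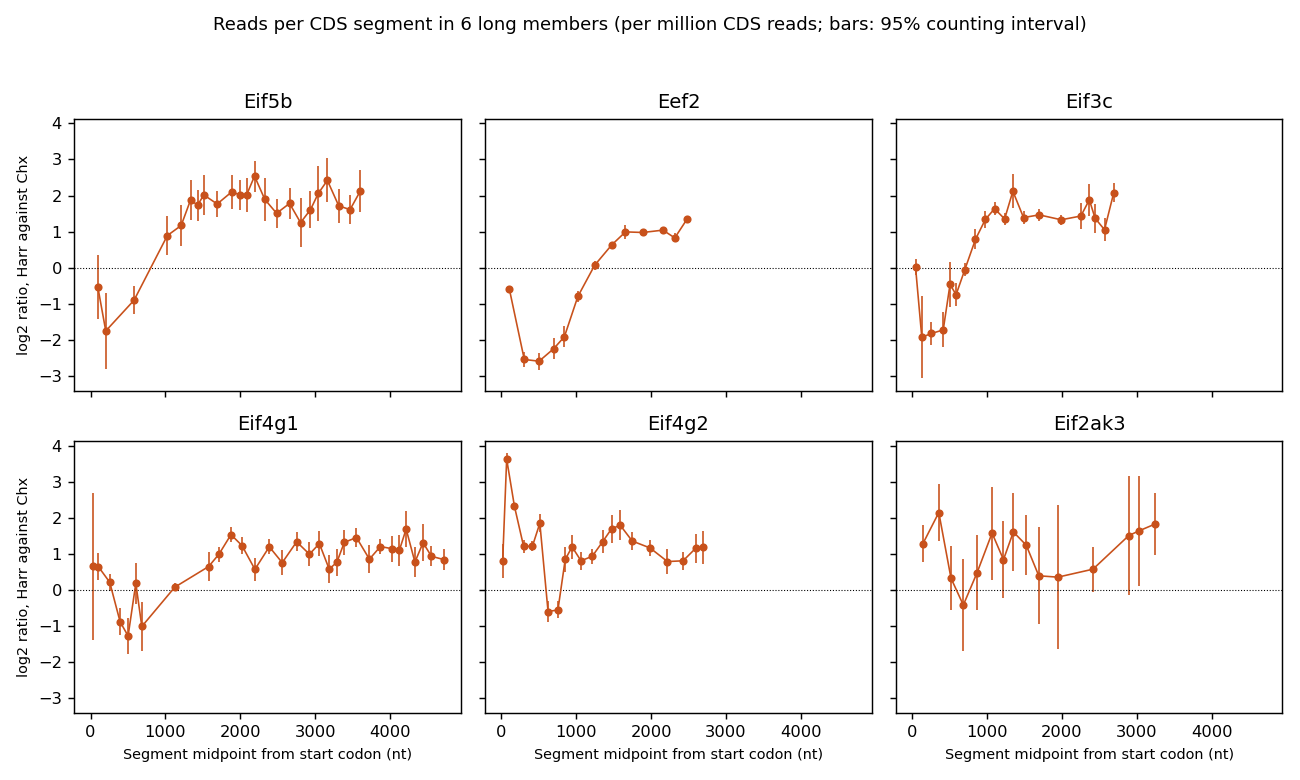
Log2 ratio of reads per CDS segment, Harr against Chx, scaled to all CDS reads, against the distance of the segment's midpoint from the start codon in nt for 6 long members; points are segments of at least 10 nt and 10 reads, and bars are 95% counting intervals. In Eif5b, Eef2, Eif3c and Eif4g1 the ratio is lowest in the first 1000 nt and higher beyond, whereas in Eif4g2 the highest ratios lie in the first 300 nt.

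Between Chx and WT the CDS levels of the members differed little. The CDS ratio, Chx against WT, lay between −0.87 and 0.54, with a median of −0.07 (0.03 over all genes). It reached 0.5 upward in 1 of 67 members and downward in 5, beside 3.60% and 2.95% of all genes. The members lower in Chx were Eif1 (−0.87), Eif1b (−0.56, interval −0.66 to −0.46), Eif3j1, Eif3j2 and Eif1a (each −0.53), with CDSs of 342 to 792 nt. Without members that share 10% or more of their transcript's words with other genes the count was 2. The 1 higher member was Eif4ebp1, at 584 against 331 reads (0.54, interval 0.35 to 0.73). It shares 20.6% of its words with other genes, and the count was 0 with median-of-ratios factors, without the start segment and without members that share words. In the 5′ UTR the odds ratio, Chx against WT, was at least 1 in 16 of 60 members, beside 34.7% of all genes, with medians of 0.50 and 0.67. The largest was that of Eif4enif1, the transporter that carries eIF4E into the nucleus, with 61, 72 and 2 reads against 825, 214 and 710 in the CDS, an odds ratio of 4.40 (2.57 to 6.23). The 2 WT reads set the width of that interval. Eif2b5, Eif2b1 (27, 27 and 6 reads; 1.94, interval 0.70 to 3.18), Eif1ax (1.92, interval 1.72 to 2.11) and Eif4ebp2 (1.87, interval 1.37 to 2.37) came next. Eif5 and Eif4g2, both with many 5′ UTR reads in WT, were at 0.01. Below 0 with an interval that did not reach 0 were Eef2 and Eif3g (−0.39, interval −0.74 to −0.04), while Eif2s2, with 67, 97 and 95 reads, was at −0.39 (−0.85 to 0.06).

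Harr was also set against WT, a pair that shares the Harr library with the comparison above. The 5′ UTR odds ratio was highest in Eif4enif1 (6.59, interval 4.75 to 8.42), Eif1ax (6.27, interval 5.91 to 6.63) and Eef1b2 (5.71, interval 5.48 to 5.93). It was lowest in Eif4b (1.05, interval −0.28 to 2.38), Eif2ak3 (1.31, interval 0.64 to 1.97) and Eif4g2 (1.33, interval 1.24 to 1.41). Eef1akmt2, a methyltransferase of eEF1A with 29, 23 and 24 reads in the 5′ UTR and 367, 130 and 347 in the CDS, followed at 1.35 (0.49 to 2.22). The CDS ratio was lowest in Eif1ax (−2.35, interval −2.66 to −2.03) and Eif4e (−2.30, interval −2.74 to −1.87). It was highest in Eif4g2 (1.55, interval 1.51 to 1.59) and Eif2ak3 (1.43, interval 1.17 to 1.68).

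Reads in the 3′ UTR set Eif1 and Eif1b apart from the other members. They made up 1.25% of all member reads in WT, 0.93% in Chx and 4.03% in Harr, beside 2.18%, 1.71% and 4.10% over all genes. Without Eif1, Eif1b and Eif4a2 the members' shares were 0.47%, 0.19% and 2.71%. Eif1 had 711, 182 and 625 reads in a 3′ UTR of 735 nt, a density of 25.3% of that of its CDS in WT, 43.3% in Chx and 16.4% in Harr. Eif1b had 451, 98 and 401 reads in 373 nt, or 19.4%, 26.5% and 14.0%. The median over 67 members was 0.93% in WT, 0.17% in Chx and 6.83% in Harr. The pair thus stood far above the median member in Chx and WT. In Harr both genes were above the median but below the members' upper quartile of 19%. In Chx the density of Eif1 was above that of 99.1% of genes and the density of Eif1b above that of 98.1%. No other gene shares a 25-nt word with the 3′ UTR of Eif1b, and 20.8% of the words of that of Eif1 are shared. Relative to the CDS the 3′ UTR reads of these 2 genes were lower in Harr, with log2 odds ratios, Harr against Chx, of −1.40 (−1.68 to −1.11) and −0.92 (−1.26 to −0.58), whereas the median over 47 members was 4.29 and over all genes 3.76.

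Eif4a2 had 1271, 1004 and 1297 reads in its 3′ UTR, but 145 nt of it overlap a CDS on the same strand. On the transcript of Eif4a2 with the most reads the counts were 591, 650 and 627. The largest 3′ UTR odds ratios, Harr against Chx, rested on very few Chx reads: Eef1g had 0, 36 and 10 reads, Eif4a1 1, 57 and 1, and Eif2s1 0, 14 and 9. Against WT the largest were those of Eif4a1 and of Eif4a3, a helicase of the exon junction, which had 2, 34 and 2. These genes also share transcript words with other genes: Eef1g 69.3%, Eif4a1 68.1%, Eif4a3 51.8% and Eif2s1 19.2%. Their counts may thus hold reads of copies. Chx against WT the 3′ UTR odds ratio was highest in Eif1 (0.78, interval 0.57 to 0.98) and Eif1b (0.45, interval 0.23 to 0.67), while the lowest, in Eef1g, Eif6 and Eef1b2, rested on at most 1 read in Chx and 9 or 10 in WT.

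**Figure D5:**
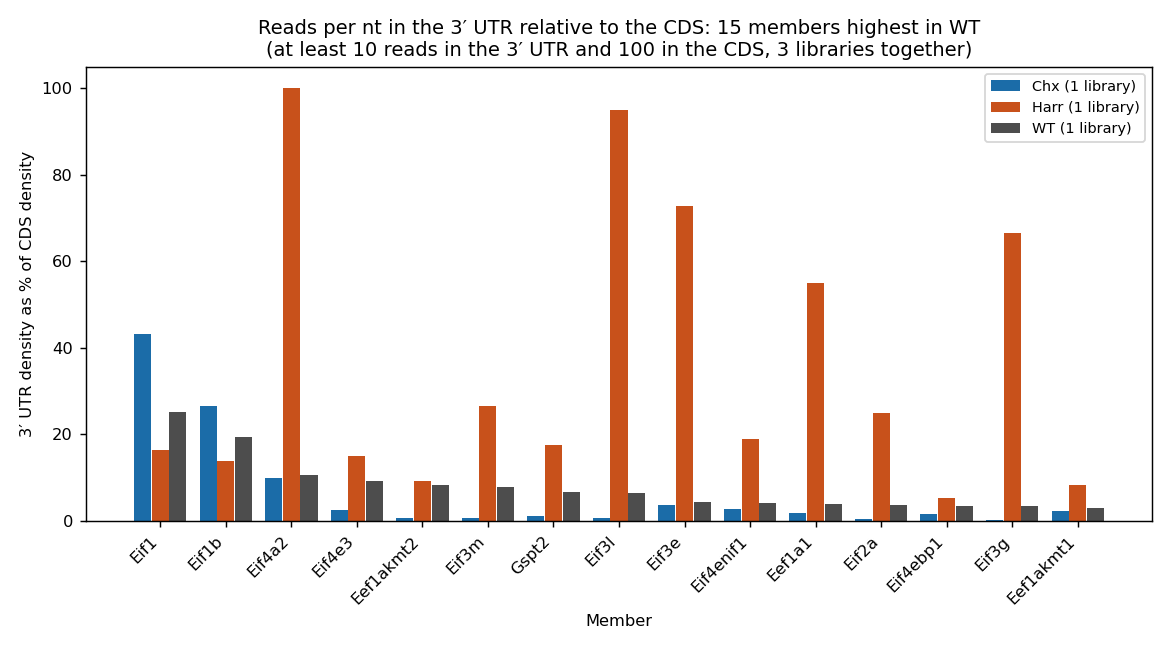
Reads per nt in the 3′ UTR as a percentage of reads per nt in the CDS, for the 15 members that were highest in WT among those with at least 10 reads in the 3′ UTR and 100 in the CDS over the 3 libraries, which leaves out Eef1akmt4 (41, 6 and 35 CDS reads); bars start at 0 and show 1 library each. Eif1 and Eif1b are highest in Chx and WT, whereas in the other 13 members shown the Harr bar is the highest.

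Upstream of the start exon 21 members have further 5′ UTR exons, where a read cannot belong to a ribosome on the annotated start codon unless the start exon is very short. Relative to the same members' CDSs the density per nt of these exons was 0.23 in WT, 0.35 in Chx and 1.89 in Harr, beside 0.30, 0.43 and 2.00 over 8486 genes. In the 11 members with at least 30 nt of 5′ UTR in the start exon it was 0.33 in Chx and 1.63 in Harr, beside 0.50 and 2.10 over 4366 genes. Upstream ATGs occurred in 26 of 71 members (36.6%), beside 55.5% of all genes. The 24 such members with enough reads had a median 5′ UTR density of 0.45 times that of the CDS in Chx and 0.22 in WT, and the 42 without an upstream ATG had 0.42 and 0.30. In WT the quartiles were 0.12 and 1.14 for members with an upstream ATG and 0.088 and 0.54 for those without, so the groups overlapped widely. All genes gave WT medians of 0.52 with and 0.27 without.

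The 9 members with textbook 5′ terminal oligopyrimidine starts (Eef1a1, Eef1b2, Eef1d, Eef1g, Eef2, Eif3e, Eif3f, Eif3h and Eif4b) had a median 5′ UTR odds ratio, Harr against Chx, of 3.59, beside 2.76 in 52 other members, and a median CDS ratio of −0.31, beside −0.22 in 58. Their CDS ratios ranged from −2.49 (Eef1b2) to 0.80 (Eif4b). Among other genes of translation, 19 cytosolic ones such as Pabpc1 had medians of 2.64 and −0.29, and 9 mitochondrial factors such as Tufm had 2.37 and −0.74.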

How the data were processed

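Footprints of 3 libraries (Chx, Harr and WT, 1 each) were analysed, grouped by the treatment in the labels, since the free-text sample descriptions name fractions that match neither titles nor treatments. The authors deposited 9 tables, 1 per library and region, of whole read counts per exon segment. A deposited signal column holds counts divided by segment length, and a deposited RPKM column holds counts scaled to length and aligned reads. Per the file headers, reads of 25 to 100 nt were counted at their 5′ end with an offset of 0, on mm10 alignments without ribosomal reads and duplicates. In the methods, a TopHat transcriptome alignment kept reads with several hits, for calling reading frames, and an Rsubread genome alignment served for counts. The headers do not say which was counted here, so whether reads with several alignments are included is unknown.

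Counts were summed per transcript and joined to GENCODE M21 symbols on the same build (141536 of 142446 identifiers matched). RPKM was recomputed from counts. Log2 odds ratios had 0.5 added to each count and needed 10 reads per region in the pair, and CDS ratios needed 100 CDS reads. Intervals are 95% counting intervals, Wilson for shares, and amplified reads may not be independent. Shared words are 25-nt stretches of a member found in transcripts of other genes. Any member could be named. The rule always named 15 core factors and, per pair of libraries, the 5 highest and 5 lowest 5′ UTR odds ratios and CDS ratios (at least 200 CDS reads) and the 3 highest and 3 lowest 3′ UTR odds ratios. Members and lists were chosen with earlier results of these data known. Alternatives covered transcript, scaling, read minimum, pseudocount, overlapping UTRs and shared words. Python 3.11.15 scripts with pandas 2.3.3 and SciPy 1.17.1 were tested on simulated data.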

Additional observations from a re-analysis of the deposited data

How the results depend on the processing

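Of 162 values under alternatives, 121 stayed within their margin, 41 moved and 0 changed direction, and the cause was not tested. No paired analysis was possible because each treatment had 1 library, and for the same reason no library could be left out. Scaled to all aligned reads, the median CDS ratio was −0.77 (Harr against Chx, 5 of 67 members upward and 43 downward) and −0.86 (Harr against WT, 3 upward), and Chx against WT 2 were downward; all 11459 genes gave −0.60 (443 and 6280), −0.51 (574) and 251. Without the members sharing at least 10% of words, 38 of 40 and 39 of 39 members had a 2-fold higher 5′ UTR ratio in Harr than in Chx and WT, 15 and 16 of 42 CDS ratios were downward, and Chx against WT 0 were upward and 2 downward, of fewer members (all genes 9851, 9884, 3373, 3284, 406 and 336). Before that exclusion the all-gene shares were 92.1%, 96.0%, 29.5%, 28.7%, 3.60% and 2.95%, in the same order. The remaining members' share of CDS reads was 0.650%, 0.806% and 0.685% (Chx, Harr, WT), and their 5′ UTRs took 9.37%, 34.0% and 6.56% of their reads. Without Eef2, the member with the most CDS reads, these shares were 1.22%, 1.30% and 1.36%, and 7.35%, 30.7% and 5.13%. With the most-read transcript, Chx gave 1.5002% and 6.26%. The count upward, Chx against WT, was also 0 with median-of-ratios factors and without the start segment. The median 3′ UTR odds ratio, Chx against WT, was −1.49 over 44 members, beside −0.93 over all genes. With a pseudocount of 5 it was −1.05, and that of Harr against Chx was 3.62. With at least 50 reads, Chx against WT, it was −0.41 over 14 members, with an interval of −1.26 to 0.34 that spans 0. Near-to-far log2 ratios pooled over the long members were −0.95 (Harr against Chx), −1.26 (Harr against WT) and −0.31 (Chx against WT). With the far part from 2000 nt they were −1.05 (Harr against Chx) and −0.25 (Chx against WT). Chosen after seeing the data, leaving out Eif4g2 gave −1.92, −2.27 and −0.35, and leaving out Eef2 gave −0.34, −0.49 and −0.15, for Harr against Chx, Harr against WT and Chx against WT. With at least 30 nt of 5′ UTR in the start exon, the density of upstream exons was 0.33 in Chx and 1.63 in Harr. Depth was lowest in Harr, where 2-digit counts limit several members.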
